A study of Homo sapiens with 6 samples.

Results

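A set of 10 neural adhesion genes of the immunoglobulin superfamily were followed in 22Rv1 prostate cancer cells: L1CAM, CHL1, NRCAM and NFASC of the L1 family, NCAM1 and NCAM2, DSCAM and DSCAML1, and CADM1 and CADM2. They were taken by gene name from the authors' expression table and read under the same gene identifiers in the count files, 10 genes of 57500 listed. The families were selected from earlier results on the contrast of liver-derived with parental cells, in which L1CAM and DSCAM stood among the largest differences. For this reason the differences of these 10 genes between the groups are given as a description, without p-values.

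The liver-derived group held 3 libraries of 22Rv1 cells that had been derived from a liver metastasis, and the parental group held 3 libraries of unmodified 22Rv1 cells, labelled control and wild type. 22Rv1 is an established human prostate carcinoma line, and both groups carry that background and were grown in RPMI-1640 medium with 10% fetal bovine serum. The labels name no host animal, no number of separate derivations and no treatment, so the spread between derivations was not measured. The series asks how prostate-specific membrane antigen varies in metastatic prostate cancer, and its design speaks of 3 conditions, of which these groups are analysed here. PolyA-selected RNA was sequenced in pairs. The libraries held 28395265 to 53275252 counts each, the lowest total being that of liver-derived replicate 2. Parental replicate 2 stood apart from its group, since its counts gave a chi-square, divided by the degrees of freedom, of 55.3 and 61.8 against parental replicates 1 and 3, whereas the other pairs within a group gave 2.24 to 3.15. The labels do not say whether replicates were separate cultures, and p-values then measure the spread between these libraries only.

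Adhesion molecules of this superfamily carry immunoglobulin-like domains outside the cell and bind the same or related molecules on a neighbouring cell. The L1 family anchors to the spectrin skeleton through ankyrins and guides axon growth and fasciculation, the NCAM proteins bind homophilically and NCAM1 can carry polysialic acid, the DSCAM proteins serve, in the mouse retina, self-avoidance and lamination of neurites, and the CADM proteins, also called SynCAMs, join synapses and epithelial contacts. Several of them are also made by carcinomas, where L1CAM is known for promoting motility and NCAM1 is a clinical marker of neuroendocrine tumours.

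The genes lie on 6 chromosomes (GRCh38, coordinates as in the count files). L1CAM (ENSG00000198910) spans 153861514 to 153909223 on the minus strand of chromosome X. DSCAM (ENSG00000171587, 40010999 to 40847139, minus strand) and NCAM2 (ENSG00000154654, 20998315 to 21543329, plus strand) are both on chromosome 21, while CHL1 and CADM2 share chromosome 3 and NCAM1, CADM1 and DSCAML1 share chromosome 11. NRCAM is on chromosome 7 and NFASC on chromosome 1. All 10 are protein-coding genes. CADM2 has the longest span at 1115449 bases and L1CAM the shortest at 47710 bases.

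The 250 bases before a RefSeq start site (table of GRCh38.p14) were available for 6 of the 10 genes, 12 windows in all: L1CAM, CHL1, NRCAM, NFASC, NCAM2 and DSCAM. The windows of the gene with the largest fall and of both chromosome 21 genes, which differed in opposite directions, are shown to set their sequences side by side, taking the RefSeq start nearest to the counted start of the gene. Capitals mark the GC box GGGCGG, on either strand, in the windows of L1CAM and DSCAM, and the repeat unit CTCCGGAACT in that of NCAM2.
L1CAM, chrX:153876015-153876264, minus strand: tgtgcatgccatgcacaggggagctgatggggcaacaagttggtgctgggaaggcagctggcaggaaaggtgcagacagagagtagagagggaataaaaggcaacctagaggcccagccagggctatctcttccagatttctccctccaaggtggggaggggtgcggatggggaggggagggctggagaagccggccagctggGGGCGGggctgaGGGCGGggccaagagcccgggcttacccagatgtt
DSCAM, chr21:40847159-40847408, minus strand: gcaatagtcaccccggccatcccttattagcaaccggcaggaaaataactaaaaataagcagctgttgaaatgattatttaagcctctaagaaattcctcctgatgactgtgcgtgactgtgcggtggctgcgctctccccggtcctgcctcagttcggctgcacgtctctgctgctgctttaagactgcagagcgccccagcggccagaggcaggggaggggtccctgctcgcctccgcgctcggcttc
NCAM2, chr21:21146912-21147161, plus strand: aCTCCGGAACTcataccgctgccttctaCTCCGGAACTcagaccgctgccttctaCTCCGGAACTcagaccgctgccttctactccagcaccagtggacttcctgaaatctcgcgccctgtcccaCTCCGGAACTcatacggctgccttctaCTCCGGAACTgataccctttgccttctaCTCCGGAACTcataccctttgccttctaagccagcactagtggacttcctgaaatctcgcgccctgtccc

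The L1CAM window held 2 GC boxes, 62.8% G and C, and 5 CpG dinucleotides, with an observed over expected CpG ratio of 0.23. DSCAM had no GC box in its window, with 56.8% G and C, 14 CpG dinucleotides and a ratio of 0.70. The NCAM2 window also had no GC box and held 14 CpG dinucleotides (56.4% G and C, ratio 0.83). It held the repeat unit 6 times, a motif picked after the sequence was read and found in 0.0484% of 35116 windows of the same length on either strand. A GC box occurred in 42.6% of those windows and the TATA box TATAAA in 10.7%, and the medians over all windows were 58.0% G and C and a CpG ratio of 0.56. None of the 3 windows held TATAAA. The E-box CANNTG, in 61.8% of windows, occurred at 3 positions before L1CAM, 1 before DSCAM and 0 before NCAM2. Motifs were searched on both strands and each counted on its own, and the marked matches did not overlap each other. The RefSeq start of DSCAM lay 19 bases from the start of the counted gene, whereas those of L1CAM and NCAM2 lay 33209 and 148847 bases inside their counted genes. Counts per gene do not show which start was used.

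Among these adhesion genes the most abundant one differed between the groups: it was DSCAM in liver-derived cells and NCAM2 in parental cells. Their summed level was 37.0, 38.2 and 37.2 TPM (a level scaled for gene length and library) in liver-derived replicates 1 to 3, against 59.3, 50.1 and 61.8 TPM in parental replicates 1 to 3. DSCAM made up 65.6% ± 0.426 of the summed TPM in liver-derived libraries and 1.34% ± 0.184 in parental libraries (SD, n = 3 each). NCAM2 made up 12.0% ± 0.264 in liver-derived libraries and 66.7% ± 3.48 in parental libraries. NFASC held a like share in both, 12.7% ± 0.328 in liver-derived libraries and 12.1% ± 2.15 in parental libraries. L1CAM made up 0.207% ± 0.102 of the sum in liver-derived libraries and 9.44% ± 2.19 in parental libraries.

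In order of TPM, the liver-derived cells had DSCAM at 24.6 ± 0.246, NFASC at 4.75 ± 0.138, NCAM2 at 4.50 ± 0.153, CADM1 at 2.13 ± 0.0953 and NRCAM at 0.873 ± 0.140 (SD, n = 3). CADM2, NCAM1, L1CAM, CHL1 and DSCAML1 followed, all with means of at most 0.303 TPM. The ranges of NFASC and NCAM2 overlapped in these cells, as did those of CADM2 with NCAM1, NCAM1 with L1CAM, and L1CAM with CHL1. The parental cells had NCAM2 at 38.2 ± 5.92, NFASC at 6.83 ± 0.421, L1CAM at 5.30 ± 0.651, CADM1 at 1.87 ± 0.412, NRCAM at 1.67 ± 0.315 and CADM2 at 1.53 ± 0.375 TPM. DSCAM at 0.760 ± 0.0663 and CHL1 at 0.714 ± 0.102 TPM came next, before NCAM1 and DSCAML1. The ranges of CADM1, NRCAM and CADM2 overlapped from one to the next in parental cells, as did those of DSCAM and CHL1.

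**Figure D1:**
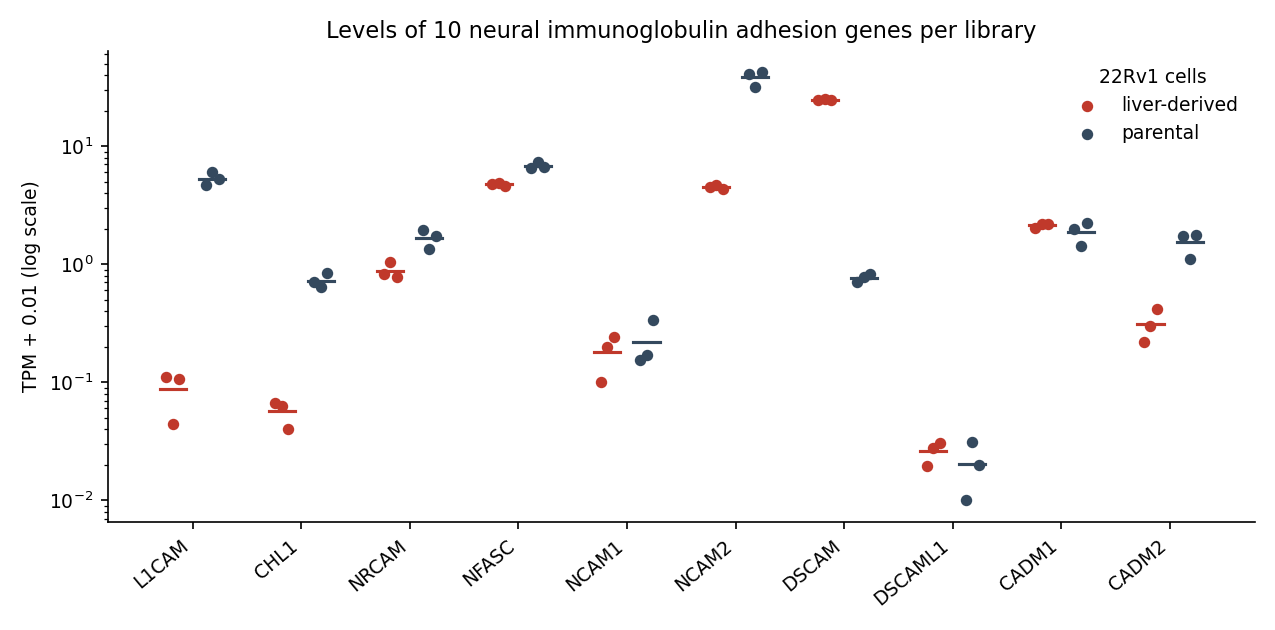
TPM + 0.01 of each gene on a log scale, 1 point per library and a line at the group mean, liver-derived left of parental. L1CAM, CHL1, NRCAM, NFASC, NCAM2 and CADM2 sit lower and DSCAM sits higher in all 3 liver-derived libraries, while the groups overlap for NCAM1, DSCAML1 and CADM1.

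Of the 10 genes, 9 had enough reads to be tested. In liver-derived against parental cells 1 was higher, where 17.5% of all 19255 genes tested were higher, and 6 were lower, where 21.3% of all genes were lower (adjusted p under 0.05 over all genes, by the quasi-likelihood test of edgeR). Together 7 of the 9 were called, where 38.8% of all genes were called in either direction. Those shares depend on parental replicate 2: without it, 5714 genes were higher and 6156 lower over all genes, against 3375 and 4101 with it. The other two, NCAM1 and CADM1, did not pass. The CPM ranges (reads scaled to TMM-normalised library size) of the groups did not overlap for 7 of the 9, against 54.0% of all genes tested. The median log2 fold change was -0.91 over the 9 genes and -0.01 over all genes tested. Since the families were chosen on this contrast, these counts and medians are a description. L1CAM and CHL1 reached the minimum for testing, about 0.207 CPM in at least 3 libraries, through the parental libraries only, so that a difference was built into their being tested. In bulk RNA, fewer cells of a kind and less RNA per cell cannot be told apart.

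**Figure D2:**
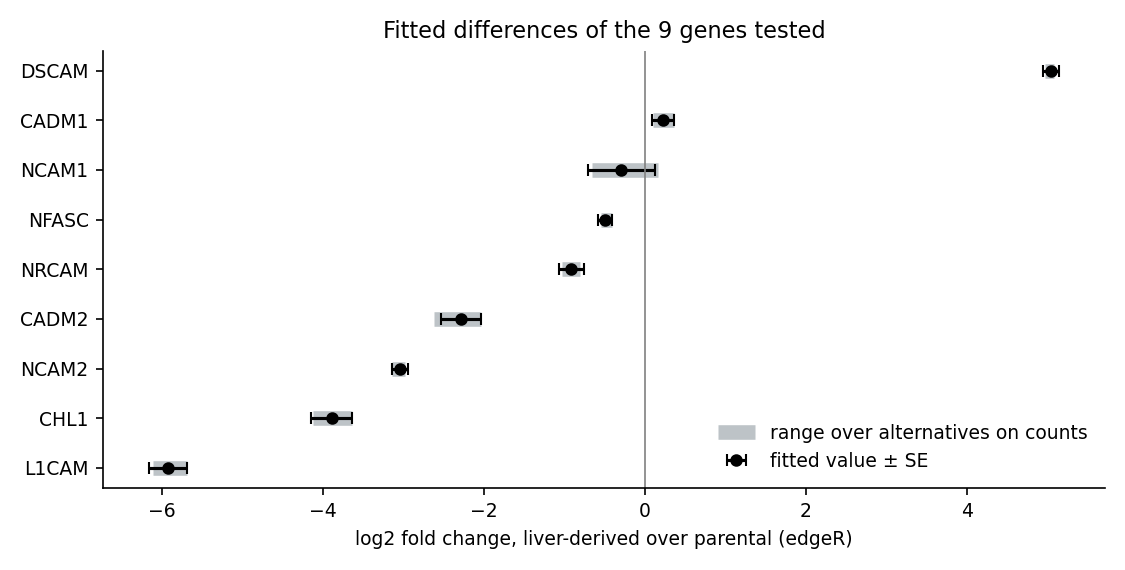
Fitted log2 fold change of the 9 tested genes, liver-derived over parental, with its SE as a bar and, in grey, the range over the alternative fits to the counts. The values run from -5.92 for L1CAM to 5.05 for DSCAM, and the grey range crosses 0 for NCAM1 only.

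In the L1 family, L1CAM itself, the founder of the family, had the largest fall. It had 11, 2 and 10 reads in liver-derived replicates 1 to 3, against 459, 587 and 550 reads in parental replicates 1 to 3. In CPM this was 0.211, 0.0716 and 0.206 in liver-derived libraries and 9.45, 12.9 and 10.4 in parental libraries. The groups were far apart, and the fitted log2 fold change was -5.92 (SE 0.24), a 60.6-fold lower level. Its fitted value ranked 21 from the bottom of the 19255 genes tested. The exons of L1CAM overlap 100 bases of ARHGAP4 on the same strand and 359 bases of L1CAM-AS1 on the opposite strand, together a small part of its 7423 exonic bases. L1CAM-AS1 held 0 to 3 reads in every library.

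CHL1, the close homolog of L1, fell as well. It stood at 0.191, 0.179 and 0.103 CPM in liver-derived replicates 1 to 3, from 10, 5 and 5 reads, against 2.22, 2.16 and 2.64 CPM in parental replicates 1 to 3. The log2 fold change was -3.89 (SE 0.25), or 14.8-fold lower, with every liver-derived library below every parental one. Levels this low rest on few reads. Its antisense partners CHL1-AS1 and CHL1-AS2, which share 238 and 402 exonic bases with it, held at most 6 reads in any library.

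NRCAM and NFASC, which are found with sodium channels and ankyrin G at the axon initial segment and the nodes of Ranvier, differed less. NRCAM had 1.91, 2.40 and 1.79 CPM in liver-derived replicates 1 to 3 and 4.34, 3.17 and 3.79 CPM in parental replicates 1 to 3, a log2 fold change of -0.91 (SE 0.16). NFASC had 29.1, 29.3 and 27.9 CPM in liver-derived replicates and 37.9, 45.3 and 37.8 CPM in parental replicates, a log2 fold change of -0.49 (SE 0.09). For both genes all liver-derived libraries lay below the lowest parental one, but the fall was 1.88-fold for NRCAM and 1.40-fold for NFASC. NFASC had the highest level of the L1 family per gene length in both groups, at 4.75 TPM in liver-derived and 6.83 TPM in parental cells, ahead of L1CAM in each.

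The pair of NCAM genes did not move together. NCAM2, known best from olfactory axons of the mouse, had 10.7, 11.1 and 10.4 CPM in liver-derived replicates 1 to 3, against 92.8, 76.6 and 95.4 CPM in parental replicates 1 to 3. Its log2 fold change was -3.04 (SE 0.10), an 8.23-fold lower level, and the groups did not overlap. NCAM1, also known as CD56, was low everywhere, with 0.325, 0.680 and 0.845 CPM in liver-derived replicates and 0.494, 0.595 and 1.12 CPM in parental replicates. Its groups overlapped, with a log2 fold change of -0.29 (SE 0.42) from 17 to 41 reads per liver-derived library and 24 to 59 reads per parental library. Without liver-derived replicate 1 the NCAM1 value was 0.06 and without parental replicate 3 it was 0.16, so its direction was not settled at this depth. NCAM1 was therefore not detectably different, and NCAM2 was the dominant transcript of the pair by TPM in both groups.

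DSCAM, the Down syndrome cell adhesion molecule, was the single gene of the set that rose. It had 59.5, 60.6 and 60.1 CPM in liver-derived replicates 1 to 3, from 3105, 1692 and 2916 reads, against 1.61, 1.92 and 1.90 CPM in parental replicates 1 to 3, from 78, 87 and 100 reads. The liver-derived libraries agreed closely with each other and lay far above all parental ones. The log2 fold change was 5.05 (SE 0.10), or 33.2-fold higher, rank 12 from the top of the 19255 fitted values. DSCAM-AS1, an antisense transcript in the same locus that shares no exonic base with DSCAM, stood at 6.27 ± 0.359 CPM in liver-derived and 2.84 ± 0.533 CPM in parental cells. Its log2 fold change was 1.14 (SE 0.14), with an adjusted p of 2.51e-04 by edgeR over all genes, and it was named after its values were seen. DSCAML1, the paralog of DSCAM, was near absent, with 1, 1 and 2 reads in liver-derived libraries and 0, 2 and 1 reads in parental libraries. It was not tested and no fold is given.

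The CADM genes were split. CADM1, an epithelial adhesion molecule known as a tumour suppressor in lung cancer, had 6.34, 6.80 and 6.94 CPM in liver-derived replicates 1 to 3 and 5.89, 4.54 and 6.58 CPM in parental replicates 1 to 3. The groups overlapped and the log2 fold change of 0.23 (SE 0.14) did not pass. CADM2, which is mainly neural, fell to 0.594, 0.823 and 1.17 CPM in liver-derived replicates, against 4.71, 3.20 and 4.72 CPM in parental replicates. Its log2 fold change was -2.28 (SE 0.25), or 4.87-fold lower, without overlap between the groups.

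Within the parental group, replicate 2 did not deviate the same way for all of these genes. Relative to the mean of parental replicates 1 and 3, it held 1.30 times the CPM of L1CAM and 1.20 times that of NFASC, but 0.677 times that of CADM2, 0.728 times that of CADM1, 0.780 times that of NRCAM and 0.814 times that of NCAM2. Left out of the fit, the log2 fold changes were -5.78 for L1CAM, -3.94 for CHL1, -1.03 for NRCAM, -0.40 for NFASC, -3.14 for NCAM2, 5.09 for DSCAM and -2.45 for CADM2. The same 1 rise and 6 falls were called without any 1 of the 6 libraries. The liver-derived libraries varied little for the abundant genes, with an SD of 0.557 CPM for DSCAM and 0.332 CPM for NCAM2.

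The genes next to DSCAM on chromosome 21 rose with it. The nearest tested protein-coding genes were PCP4, 81602 bases away on one side, and BACE2, 320662 bases away on the other. PCP4, a calmodulin-binding protein gene, averaged 1.92 CPM in liver-derived and 0.148 CPM in parental cells (log2 fold change 3.72, SE 0.33). BACE2, an aspartic protease related to the APP-cleaving BACE1, averaged 208 CPM in liver-derived and 18.9 CPM in parental cells (3.46, SE 0.07). Beyond PCP4 stood IGSF5, another immunoglobulin superfamily gene, at 3.23 and 0.157 CPM in liver-derived and parental cells (4.29, SE 0.33), and SH3BGR at 28.9 and 4.31 CPM (2.75, SE 0.10), both named after their values were seen. B3GALT5, between IGSF5 and SH3BGR, went the other way at 0.130 CPM in liver-derived and 0.689 CPM in parental cells. Of 27 other tested protein-coding genes within 2 Mb of DSCAM, 14 were higher and 7 lower. On chromosome 21 as a whole, 126 of 225 tested genes of any kind were higher and 27 lower. The share of higher genes around DSCAM was thus not above that of its chromosome. Over all genes tested, 17.5% were higher and 21.3% lower. TMPRSS2, the androgen-regulated serine protease gene, was among the lower genes near DSCAM. It stood at 8.37 ± 0.592 CPM in liver-derived and 49.9 ± 3.60 CPM in parental cells (log2 fold change -2.58).

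Chromosome 21 as a whole was shifted upward in liver-derived cells, with a median log2 fold change of 0.54 over 225 tested genes and -0.01 over 19030 genes elsewhere. On it 126 genes were higher and 27 lower, where 17.5% of all genes tested were higher and 21.3% lower. DSCAM had the highest fitted value of the chromosome, and NCAM2 the third lowest. No other tested protein-coding gene lay within 2 Mb of NCAM2, and its nearest ones, CHODL at 2.73 Mb and MRPL39 at 4.04 Mb, were both higher, by 0.75 (SE 0.13) and 0.62 (SE 0.08) on the log2 scale. The part of the chromosome shift in the values of either gene was not tested.

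Around L1CAM the genes moved unevenly. PDZD4, 30949 bases away and the nearest tested gene on one side, fell to 1.37 CPM in liver-derived cells, against 30.9 CPM in parental cells (log2 fold change -4.46, SE 0.16). On the other side ARHGAP4 overlaps L1CAM. The nearest tested gene there without overlap, NAA10, 20019 bases away, stood at 58.9 CPM in both groups (0.00, SE 0.10). ARHGAP4, which shares exonic bases with L1CAM, had 2.04 ± 0.753 CPM in liver-derived and 7.81 ± 1.27 CPM in parental cells (-2.00, SE 0.22). Within 0.5 Mb, 1 of 27 tested protein-coding genes was higher and 12 were lower, with a median log2 fold change of -0.29. Over all genes tested, 17.5% were higher and 21.3% lower. Beside NFASC, its nearest tested neighbours CNTN2 and LRRN2 had log2 fold changes of -4.13 (SE 0.33) and -4.37 (SE 0.23), both with under 4 CPM in parental cells, while that of NFASC itself was -0.49. The only nearest tested neighbour of CHL1, CNTN4 at 1.69 Mb, was lower (-0.46, SE 0.12). Beside NRCAM, LAMB1 at 0.144 Mb was higher (0.50, SE 0.08) and PNPLA8 at 0.0137 Mb did not pass. Beside NCAM1, TTC12 at 0.0361 Mb was higher (0.32, SE 0.08) and PTS at 0.691 Mb did not pass. The nearest tested neighbours of CADM1 (REXO2 and BUD13), CADM2 (GBE1 and CHMP2B) and DSCAML1 (CEP164 and FXYD6) did not pass the test on either side. Those of CADM1 and CADM2 were far off: REXO2 at 0.719 Mb, BUD13 at 1.24 Mb, GBE1 at 3.2 Mb and CHMP2B at 1.15 Mb. CEP164 and FXYD6 lay 0.0145 and 0.0195 Mb from DSCAML1. The window sizes around DSCAM and L1CAM were chosen after values were seen.

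**Figure D3:**
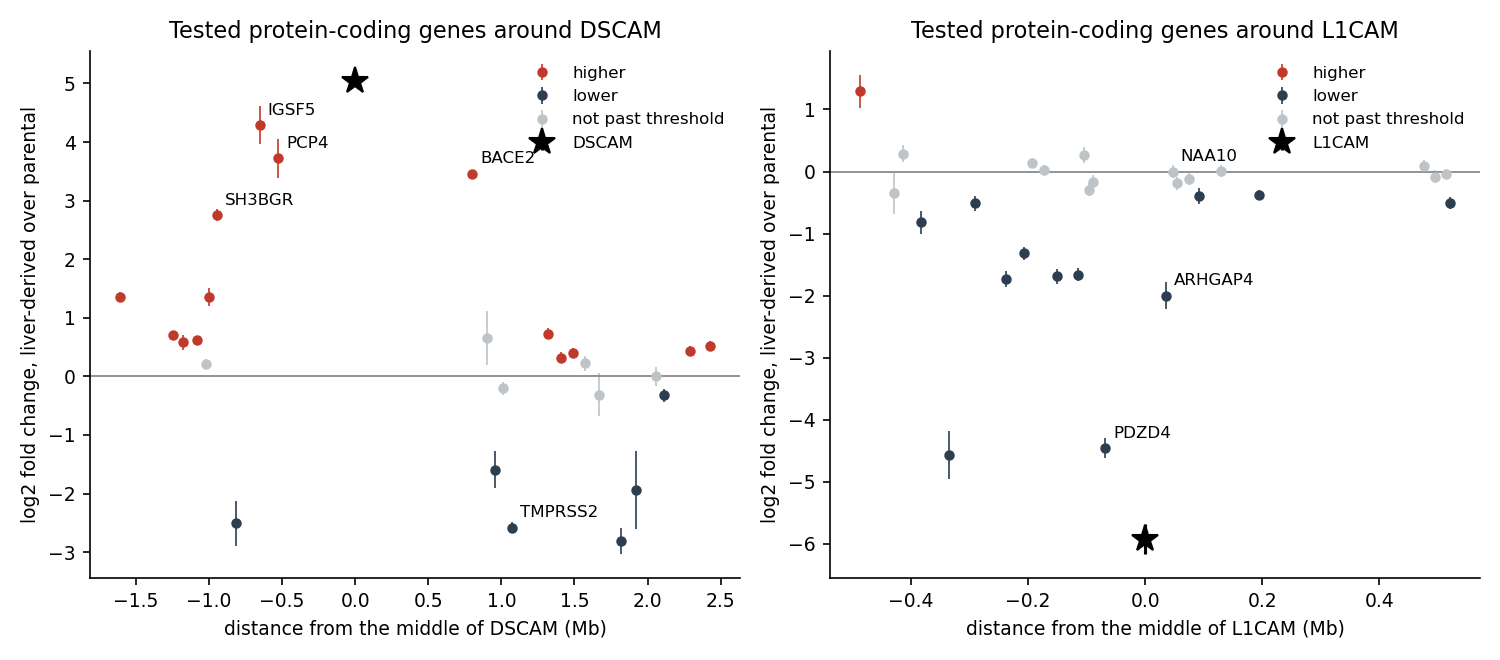
Fitted log2 fold change (liver-derived over parental, bars are SE) of tested protein-coding genes within 2 Mb of DSCAM on the left and within 0.5 Mb of L1CAM on the right, against the distance from the middle of that gene in Mb; genes with no read in liver-derived cells are left out. PCP4, IGSF5, SH3BGR and BACE2 stand between 2.75 and 4.29 beside DSCAM at 5.05. PDZD4 at -4.46, ARHGAP4 at -2.00 and NAA10 at 0.00 stand around L1CAM at -5.92.

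Of 27 other adhesion molecules of the superfamily listed, 22 were tested, of which 3 were higher, 13 lower and 6 did not pass, with a median log2 fold change of -0.60. Over all genes tested 17.5% were higher and 21.3% lower, with a median of -0.01. Of the lower genes, CNTN2, MDGA1, LSAMP, NTM and IGSF9B did not reach the minimum for testing in the liver-derived libraries alone. SDK2, a higher one, did not reach it in the parental libraries alone. For these genes a difference was in part built into their being tested. The count of lower genes in the list depended on the scale and the filter. It was 6 on log2(TPM + 1) and 6 on log2(TPM + 0.1), both after a filter on TPM, and 7 on log2(TPM + 1) without a filter. The filter on TPM left out CNTN2 and MDGA1, which averaged 0.513 and 0.713 TPM in parental cells. CNTN2, an axonal contactin that binds L1 family proteins, fell to 0.0823 ± 0.0473 CPM in liver-derived cells, against 1.54 ± 0.170 CPM in parental cells (log2 fold change -4.13, SE 0.33). MDGA1, a membrane-anchored regulator of synaptic adhesion, fell to 0.279 ± 0.107 CPM in liver-derived cells, against 2.81 ± 0.280 CPM in parental cells (-3.25, SE 0.23). NECTIN4, an epithelial nectin and drug target in urothelial cancer, fell to 1.41 ± 0.0541 CPM in liver-derived cells, against 5.08 ± 0.525 CPM in parental cells (-1.85, SE 0.13). ALCAM, or CD166, was the most abundant riser, at 596 ± 0.982 CPM in liver-derived and 182 ± 25.9 CPM in parental cells (1.71, SE 0.10, adjusted p = 2.73e-06 by edgeR). CNTN1, a contactin that binds PTPRZ1, was also higher, at 15.0 ± 0.620 CPM in liver-derived and 7.39 ± 0.828 CPM in parental cells, and was named after its values were seen, as was the third riser, SDK2, which stayed under 1 CPM. Without parental replicate 2, 5 of the list were higher. CADM4, a further CADM gene, did not pass, at 28.6 ± 0.723 CPM in liver-derived and 34.9 ± 5.47 CPM in parental cells.

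Surface partners of these proteins were mixed, with 5 higher, 4 lower and 7 not past the threshold among 16 tested of 19 listed (median -0.07). For this list and the cytoplasmic and enzyme lists below, the shares over all genes tested were 17.5% higher and 21.3% lower. PTPRZ1, a receptor phosphatase whose known ligands include contactin 1, NRCAM, L1CAM and NCAM1, rose to 215 ± 1.96 CPM in liver-derived cells, against 1.80 ± 0.363 CPM in parental cells (log2 fold change 6.89, SE 0.13). FGFR3, of the fibroblast growth factor receptors that NCAM and L1 proteins engage, fell to 28.2 ± 0.290 CPM in liver-derived cells, against 113 ± 16.3 CPM in parental cells (-2.00, SE 0.11), and 2 other receptors of this family, named after their values were seen, went opposite ways, FGFR4 lower (-1.09, SE 0.18) and FGFR1 higher (0.50, SE 0.09). UNC5C, a netrin receptor that can pair with DSCAM, fell to 3.42 ± 0.114 CPM in liver-derived cells, against 9.64 ± 1.24 CPM in parental cells (-1.50, SE 0.12). GLDN, or gliomedin, which clusters NFASC and NRCAM at nodes of Ranvier, rose to 4.02 ± 0.152 CPM in liver-derived cells, against 1.45 ± 0.169 CPM in parental cells (1.46, SE 0.13). DCC and NTN1, the netrin receptor and netrin itself, stayed under 1 CPM and did not pass.

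Among 21 tested cytoplasmic partners of 22 listed, 7 were higher, 8 lower and 6 did not pass (median 0.14). The ankyrins, which hold L1 family tails to spectrin, went both ways. ANK1 fell to 1.47 ± 0.163 CPM in liver-derived cells, against 14.6 ± 1.93 CPM in parental cells (log2 fold change -3.29, SE 0.14). ANK3, the gene of ankyrin G, rose to 103 ± 2.68 CPM in liver-derived cells, against 42.1 ± 1.79 CPM in parental cells (1.30, SE 0.07), and ANK2 rose by 1.03 (SE 0.09). FYN, a Src family kinase downstream of NCAM and contactins, rose to 16.5 ± 0.660 CPM in liver-derived cells, against 7.35 ± 0.191 CPM in parental cells (1.16, SE 0.08).

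Of the 11 enzymes listed for cleavage and polysialylation, 8 were tested, with 3 higher, 2 lower and 3 not past the threshold (median 0.08). ST8SIA4, a polysialyltransferase of NCAM1, fell to 4.23 ± 0.224 CPM in liver-derived cells, against 10.1 ± 0.644 CPM in parental cells (-1.26, SE 0.10). The other polysialyltransferase of NCAM1, ST8SIA2, held too few reads to be tested. PSEN2, of the gamma-secretase complex, was lower, with a log2 fold change of -0.30 (SE 0.10). ADAM10, a sheddase of L1CAM and NCAM1, stood at 91.3 ± 2.92 CPM in liver-derived and 72.3 ± 8.78 CPM in parental cells (0.34, SE 0.10), whereas ADAM17 did not pass. Among the genes of the partner and enzyme lists named as higher or lower, the adjusted p of the edgeR fit ran from 7.95e-09 for PTPRZ1 to 0.0338 for PSEN2. These genes, like ALCAM, were named because they were called in this contrast. Their adjusted p values are therefore a description and no separate evidence.

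**Figure D4:**
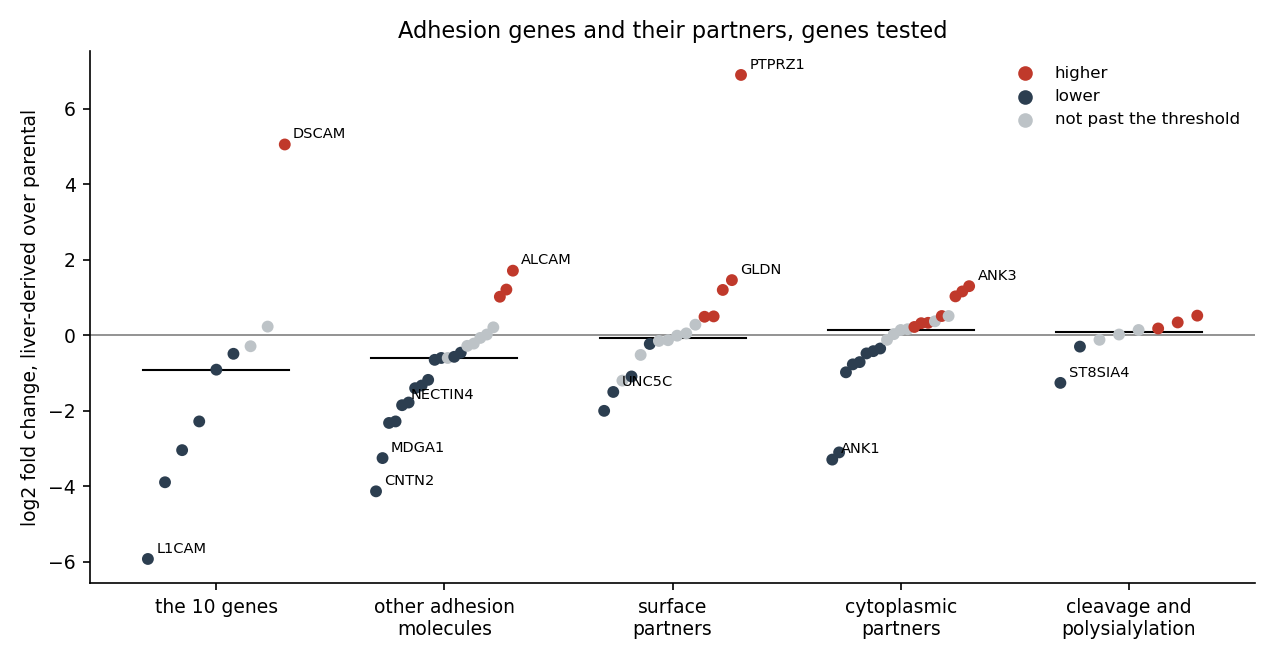
Fitted log2 fold change (liver-derived over parental) of every tested gene in 5 lists, 1 point per gene, coloured by the edgeR call, with a line at each list's median. The medians are -0.91 for the 10 adhesion genes, -0.60 for other adhesion molecules, -0.07 for surface partners, 0.14 for cytoplasmic partners and 0.08 for cleavage and polysialylation enzymes.

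The tested protein-coding genes whose CPM over the 6 libraries was nearest to that of L1CAM, by Euclidean distance on log2(CPM + 0.5), were CRYBA2 (distance 0.611), DDX53 (0.636) and LHFPL4 (0.669). They averaged 0.288, 0.123 and 0.0567 CPM in liver-derived cells and 10.7, 12.0 and 9.30 CPM in parental cells, in that order. Nearest to DSCAM were TGM2 (0.568), CEACAM6 (0.879) and PDE3A (1.43). With 2 groups of 3 libraries, a small distance says little more than that both group means were similar.

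Lists of markers of other cell kinds were read beside these genes and did not move alike. Over all genes tested, 17.5% were higher and 21.3% lower. Of 12 neuroendocrine markers, 9 were tested, 8 of them lower, and their summed level was 294 to 296 CPM in liver-derived and 586 to 675 CPM in parental libraries; UCHL1 was the tested marker that did not pass, and INSM1 and NEUROD1 were among those too low to test. Of 12 neuron markers, 9 were tested, with 2 higher and 6 lower, at 137 to 145 CPM summed in liver-derived and 159 to 161 CPM in parental libraries. The largest part of the sum was NEFH, which was higher at 88.7 ± 4.14 CPM in liver-derived and 76.1 ± 4.62 CPM in parental cells. SYT1 was the other higher one, at 5.04 ± 0.334 and 0.917 ± 0.208 CPM in that order. DCX was near 0 throughout, and DCX and GAP43 also stand on the list of cytoplasmic partners. Of 8 glial and Schwann cell markers, 6 were tested, with 2 higher and 1 lower, at 40.3 to 42.2 CPM in liver-derived and 18.8 to 19.4 CPM in parental libraries, nearly all of it from MBP; SOX10 had no read. Of 10 hepatocyte markers, 3 were tested, with 2 higher and 1 lower, at 65.5 to 69.2 CPM in liver-derived and 43.3 to 53.8 CPM in parental libraries. Nearly all of that sum was ALB, the albumin gene, which was higher at 65.8 ± 1.61 CPM in liver-derived and 47.7 ± 6.06 CPM in parental cells, and APOB and FGB were near 0. APOA1 was the other higher one, at 0.628 ± 0.0807 CPM in liver-derived and 0.184 ± 0.0528 CPM in parental cells. ASGR1 was the lower one, at 0.178 ± 0.0409 CPM in liver-derived and 1.47 ± 0.0714 CPM in parental cells (log2 fold change -3.08, SE 0.24). Of 12 stromal, endothelial and leukocyte markers, 6 were tested, 2 of them lower, at 21.1 to 22.5 CPM in liver-derived and 21.8 to 25.3 CPM in parental libraries, and CDH5 and CD3E had no read. Of the markers called lower, GAP43, ELAVL3, ELAVL4, GFAP, LUM and ASGR1 did not reach the minimum for testing in the liver-derived libraries alone. APOA1 and AQP4, both called higher, did not reach it in the parental libraries alone. The part of these markers in the levels of the adhesion genes was not tested. All 10 listed luminal prostate markers had reads in both groups and were tested, with 3 higher and 6 lower. Their sum was 3560 to 3630 CPM in liver-derived and 3910 to 4120 CPM in parental libraries. The largest parts of the liver-derived sum were KRT8 and KRT18, both higher. KRT8 stood at 1140 ± 17.4 CPM in liver-derived and 659 ± 94.0 CPM in parental cells. KRT18 stood at 677 ± 10.1 and 409 ± 47.4 CPM in that order. The largest falls were those of KLK2 (9.08-fold), TMPRSS2 (5.98-fold), KLK3 (5.76-fold) and FOLH1 (3.32-fold).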

How the data were processed

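Per the submitters' processing notes, Trimmomatic 0.36, STAR 2.5.2b, featureCounts and Subread 1.5.2 were used, with the build GRCh38. Annotation release, strand setting and pair handling: not given in the sources used here. Files of whole-number counts, 1 per library, and a TPM table were deposited by the authors; the TPM values equalled values recomputed from counts and gene lengths within a relative difference of 1e-04; 391182 rows of it without a gene were left out. Symbols of genes outside the 10 came from a table of identifiers that matched 98.1% of them, and biotypes from GENCODE release 29.

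Genes passing filterByExpr were scaled with TMM factors and tested with edgeR 4.0.16 (R 4.3.3) by a quasi-likelihood fit with robust estimates and the group as the only term, adjusted over 19255 genes at a threshold of 0.05. The step was tested on simulated data. Errors are SD over 3 libraries or SE of the fitted log2 fold change. Every pair of replicates differed by more than sampling noise, and each library was counted as 1 replicate. Such differences do not show that the libraries came from separate cultures. Sequences came from RefSeq. Without the strand setting, reads of genes that overlap on opposite strands cannot be told apart.

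The genes and lists were chosen with earlier results of these data known. Genes named were all 10 adhesion genes; from other adhesion molecules and each partner list, up to 4 called genes of 1 CPM or more, ranked by size of change; genes sharing exons with the 10; their nearest tested neighbours; and the 3 nearest profiles to the largest riser and faller. A gene of the enzyme list that this rule names is not reported here. Alternatives were RLE or upper-quartile factors, library size alone, other filters, DESeq2 1.42.0, limma-voom (limma 3.58.1), limma on log2(TPM + 1) or log2(TPM + 0.1), the replicate number as a block, and each library left out.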

Additional observations from a re-analysis of the deposited data

How the results depend on the processing

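Of the 10 adhesion genes, 1 was called higher and 6 lower without any 1 of the 6 libraries, 5 were lower on TPM with a filter, which leaves CHL1 out, and the fitted direction of all tested genes but NCAM1 was the same in all 17 alternatives that gave them a value. NCAM1 had -0.66 to 0.16 over the libraries left out: it turned to 0.06 without liver-derived replicate 1 and to 0.16 without parental replicate 3. On counts and TPM together, the log2 fold change ran from -6.11 to -2.54 for L1CAM and from 3.86 to 5.09 for DSCAM; the smaller sizes came on log2(TPM + 1), which understates changes of low genes by its construction. Of the other adhesion molecules, 13 were lower in the main comparison, and 6 on log2(TPM + 1), 6 on log2(TPM + 0.1) and 7 on log2(TPM + 1) without a filter. The filter on TPM leaves low genes such as CNTN2 and MDGA1 out before any test. The cause of the smaller count without a filter was not tested. Leaving out 1 library at a time, 2432 to 5714 genes were higher and 3168 to 6156 lower over all genes, and 2 to 5 other adhesion molecules were higher; each highest count came without parental replicate 2. The libraries showed no clear pairing by replicate number: deviations from the group means correlated by -0.00842, 0.00925 and 0.0722 for numbers 1 to 3. Liver-derived replicate 3 correlated best with its own number, whereas liver-derived replicates 1 and 2 did not. Values this small, with parental replicate 2 apart from its group, cannot settle whether libraries were paired. With the replicate number as a block, 3169 genes were higher and 3883 lower over all genes, and 1 and 6 of the adhesion genes. Depth limits NCAM1, DSCAML1 and the liver-derived levels of L1CAM and CHL1, which rest on 0 to 59 reads per library.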
